A study of Homo sapiens with 12 samples.

Results

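RBE is a human line of intrahepatic cholangiocarcinoma, which arises from the small bile ducts inside the liver. Its response to anlotinib was read from 6 RNA sequencing libraries of the 12 in the series. Anlotinib cultures received 5 µM anlotinib for 24 h, with the drug dissolved in dimethyl sulfoxide at a final 0.1%. The control cultures were kept without the drug. The protocol text attached to every sample, controls included, gives that solvent concentration and has no separate statement for controls. Both groups grew in the same medium with 10% fetal bovine serum, and the study's design text gives 3 biological replicates per group. The same treatment was given to HCCC9810, another line of this cancer, with 3 anlotinib and 3 control libraries. All 12 libraries were fitted together, so those of HCCC9810 share in the scaling and in the estimate of spread behind every RBE test. The response of HCCC9810 itself is used here only to test where RBE differed. Each is 1 established tumour line, so the values describe that line and not the disease.

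Libraries were put into groups by the words in the column headers of the count table (RBE, treat, control), and all genes that passed an expression filter on the 6 RBE columns were kept, which left 18019 of 58216. Libraries are named by the number in the header, anlotinib 4, 5 and 6 and control 1, 2 and 3, and values per library are always given in that order. The numbers in the sample titles are in conflict with the headers: titles carry 1 to 3 for treated RBE and 4 to 6 for control RBE. If those numbers were followed in place of the words, every sign reported here would turn round and every size would stay.

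Anlotinib is an oral inhibitor of receptor tyrosine kinases, above all the receptors for vascular endothelial growth factor, fibroblast growth factor and platelet-derived growth factor, and also KIT and RET. Such receptors sit in the cell membrane, bind a growth factor outside the cell and pass the signal through ERK and AKT kinases to transcription, growth and division. The VEGF receptors are best known from endothelial cells, while the FGF receptors are found on many epithelial cells, those of the bile duct included.

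Levels are CPM, counts per 1000000 counts of the library size after scaling by trimmed means of M values. Fold changes are log2 values of anlotinib over control ± SE from edgeR's quasi-likelihood test, and a gene was called at a Benjamini-Hochberg adjusted p below 0.05. Means are given ± SD over 3 libraries per group. Genes given as not called, apart from the receptors of the drug and KRT7, were chosen after their values were seen, as common members or readouts of their group. Levels of different genes are not compared, since CPM does not account for gene length. Total counts ran between 18227987 and 40963529 in anlotinib libraries and between 17779598 and 31956474 in control libraries. Mitochondrial transcripts took 6.37% to 7.31% of counts in anlotinib libraries and 6.18% to 7.16% in control libraries. On the first principal component of the 6 libraries, with 63.4% of the variance, the groups lay apart. The second held 17.5% and set anlotinib library 6 and control library 3 against the others. In these libraries the deviation of a gene from its group mean rose with the gene's GC content (Spearman's rho across genes 0.714 in anlotinib library 6 and 0.729 in control library 3), while in anlotinib libraries 4 and 5 and control libraries 1 and 2 it fell (-0.701, -0.617, -0.142 and -0.713). Genes are not independent replicates, and the part of this split in the results was not tested beyond the fits with GC correction and without single libraries that are given beside results.

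The bile duct label was checked against its markers. KRT19, a keratin of bile duct epithelium, had 933, 914 and 1157 CPM in anlotinib libraries, against 696, 603 and 771 CPM in control libraries (log2 fold change 0.54 ± 0.14, adjusted p = 0.0171). The groups did not overlap, but the call was lost without control library 1 and without control library 2. Its partner keratin KRT7 was at 1102 ± 176 CPM with anlotinib and 1219 ± 165 CPM without (log2 fold change -0.15 ± 0.19, adjusted p = 0.66, not called). EPCAM, an epithelial adhesion molecule, was at 50.2 ± 1.59 and 46.7 ± 5.7 CPM. Summed over the 11 bile duct markers tested, levels were 3141 to 3835 CPM in anlotinib libraries and 2804 to 3168 CPM in control libraries. Few markers of endothelial cells and leukocytes had enough counts to be tested, while more of those of fibroblasts and hepatocytes did. Of 9 endothelial markers 2 had enough counts to be tested, and their sums were 7.54 to 8.03 CPM in anlotinib libraries and 3.62 to 5.02 CPM in control libraries. The defining endothelial gene CDH5 had 18 counts over the anlotinib libraries and 10 over the control libraries, and the higher sum came from VWF (3.43, 2.98 and 4.68 CPM with anlotinib and 0.457, 0.159 and 0.329 CPM in controls), a gene chosen after its values were seen. Of 10 leukocyte markers 4 were tested, with sums of 11.3 to 14.2 CPM in anlotinib libraries and 7.34 to 10.2 CPM in control libraries, and the T cell gene CD3E had 5 counts over the anlotinib libraries and 1 over the control libraries. The member called was ITGAM, an integrin of myeloid cells, with 6.69, 6.42 and 8.94 CPM in anlotinib libraries, against 3.62, 3.65 and 2.87 CPM in control libraries (log2 fold change 1.11 ± 0.19, adjusted p = 7.79e-04), and its part in the results was not tested. Of 10 fibroblast markers 6 were tested, with sums of 59.6 to 63.8 CPM in anlotinib libraries and 60.96 to 76.3 CPM in control libraries. LUM, not tested, had 1 count over the anlotinib libraries and 2 over the control libraries. Among those tested 2 rose and 1 fell, with PDGFRB and PDGFRA, described with the receptors below, among these. Of 16 hepatocyte markers 11 were tested, with sums of 133 to 156 CPM in anlotinib libraries and 167 to 223 CPM in control libraries. The 1 that fell was SERPINA1, at 92.9 ± 12.8 CPM with anlotinib and 130 ± 15.8 CPM in controls (log2 fold change -0.49 ± 0.12). Its call was lost without control library 2, without anlotinib library 4 and without anlotinib library 5.

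After 24 h with anlotinib, RBE had more transcript of nearly the whole cholesterol synthesis pathway, of many oxidative stress and immediate early genes and of some lysosomal genes, and less transcript of the genes of DNA replication and mitosis. In all, 3205 genes were called, 17.8% of those tested: 1693 rose (9.4%) and 1512 fell (8.39%). Counts of calls in a gene list are to be read beside these shares of all genes. A fit of the RBE libraries alone called 3027 genes. At least 2-fold rises numbered 714 (3.96%) and at least 2-fold falls 237 (1.32%). The CPM ranges of the groups lay apart for 35.3% of the genes tested, 19.3% with anlotinib higher and 16% with anlotinib lower. The number of calls rested on single libraries and on the handling of GC content. It was 1958 without control library 1, 2016 without anlotinib library 4, 1952 without anlotinib library 5 and 5053 with a correction for GC content and length, while rises made up between 45.6% and 61.5% of the calls over all 15 alternative settings.

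**Figure D1:**
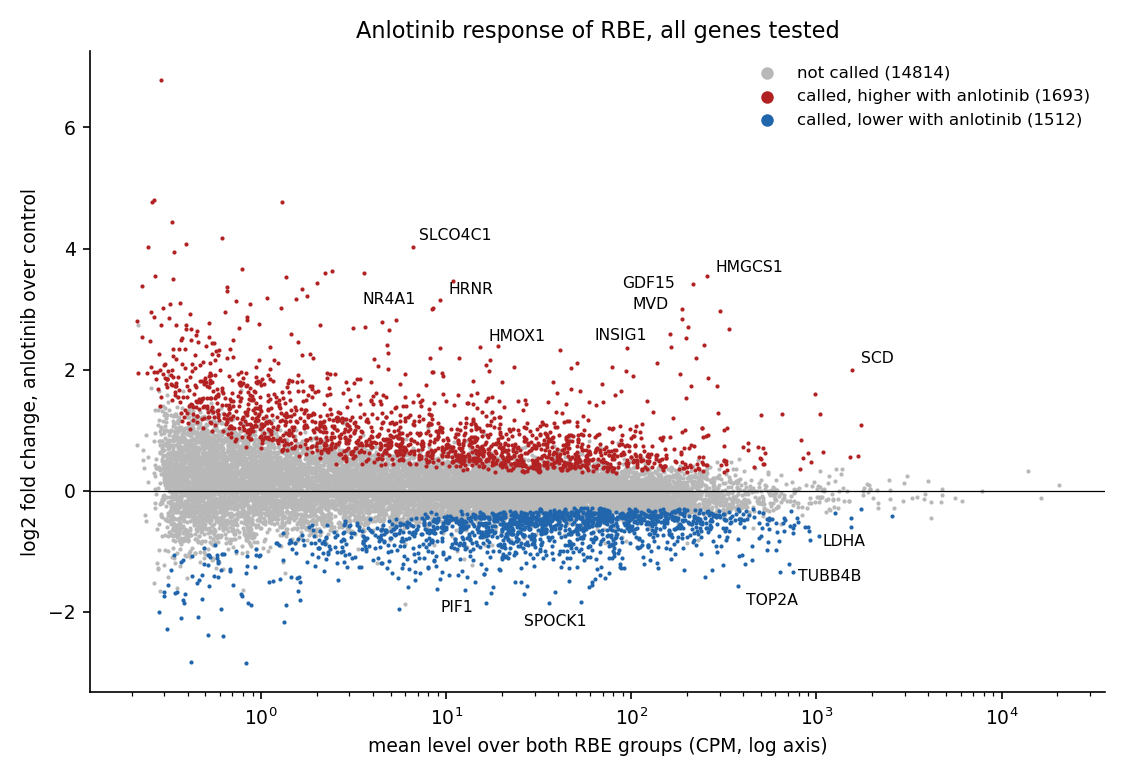
Each point is 1 of the 18019 genes tested, with its mean level over both RBE groups on a log axis (CPM) and its log2 fold change of anlotinib over control on the vertical axis. Called rises (red, 1693) reached larger fold changes than called falls (blue, 1512), and SLCO4C1, HMGCS1 and GDF15 lay highest among the genes labelled.

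The 12 largest called rises were taken among genes whose groups did not overlap and whose higher group averaged 5 CPM or more. SLCO4C1, an organic anion transporter (ENSG00000173930, chromosome 5, 102233986 to 102296549 on GRCh38), had 15.1, 12.9 and 9.47 CPM in anlotinib libraries, against 0.843, 0.634 and 0.778 CPM in control libraries (log2 fold change 4.03 ± 0.25, adjusted p = 2.72e-07). All 3 anlotinib libraries were far above all control libraries. TRIM54, a ring finger protein of muscle, had 6.09, 6.55 and 7.34 CPM with anlotinib and 0.632, 0.264 and 0.659 CPM without (log2 fold change 3.59 ± 0.26, adjusted p = 3.21e-07). ALDOC, a brain-type aldolase of glycolysis with 10% of its exon bases shared with another gene, had 18.4, 16.3 and 25.4 CPM with anlotinib, against 1.9, 1.8 and 1.74 CPM in controls (log2 fold change 3.46 ± 0.19, adjusted p = 3.33e-08). HRNR, a protein of the cornified skin layer, reached a mean of 16.7 ± 4.18 CPM with anlotinib and 1.87 ± 0.0186 CPM in controls. The sulfotransferase gene SULT1C2 averaged 9.26 ± 0.942 CPM with anlotinib and 1.38 ± 0.557 CPM in controls (log2 fold change 2.81 ± 0.27, adjusted p = 5.71e-06), and the long non-coding RNA AL590004.4 had a log2 fold change of 2.99 ± 0.21. The other 6 of the 12 largest rises, HMGCS1, GDF15, NR4A1, MVD, MSMO1 and ACSS2, belong to groups described next.

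The 12 largest called falls were taken under the same limits. SPDEF, a transcription factor of goblet and other secretory cells, had 2.35, 1.88 and 2.71 CPM in anlotinib libraries, against 8.82, 8.62 and 8.92 CPM in control libraries (log2 fold change -1.95 ± 0.20, adjusted p = 1.22e-05). SPOCK1, a matrix proteoglycan (ENSG00000152377, chromosome 5, 136975298 to 137598379 on GRCh38), had 15.9, 16.7 and 13.7 CPM with anlotinib and 55.5, 60.6 and 52.9 CPM without (log2 fold change -1.86 ± 0.11, adjusted p = 6.77e-08). In both genes every anlotinib library was below every control library. OLFM4, a secreted protein of intestinal and biliary progenitor-like epithelium, averaged 4.33 ± 0.165 CPM with anlotinib and 13.4 ± 2.47 CPM in controls, and the semaphorin receptor gene PLXNA4 averaged 8.9 ± 0.481 and 26.8 ± 1.16 CPM. ANKS4B, a component of the brush border, fell by 1.60 on the log2 scale. KRT81, a hair keratin whose near-identical relatives make its count uncertain, fell by 1.83, and NKILA, a long non-coding RNA that restrains NF-kB, fell by 1.71. The receptor gene NTRK3 and the mitotic and replication genes PIF1, SPC24, SPC25 and CDCA3 make up the rest. All 24 of these genes lay in ranges that did not overlap between groups, which the rule that named them required.

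**Figure D2:**
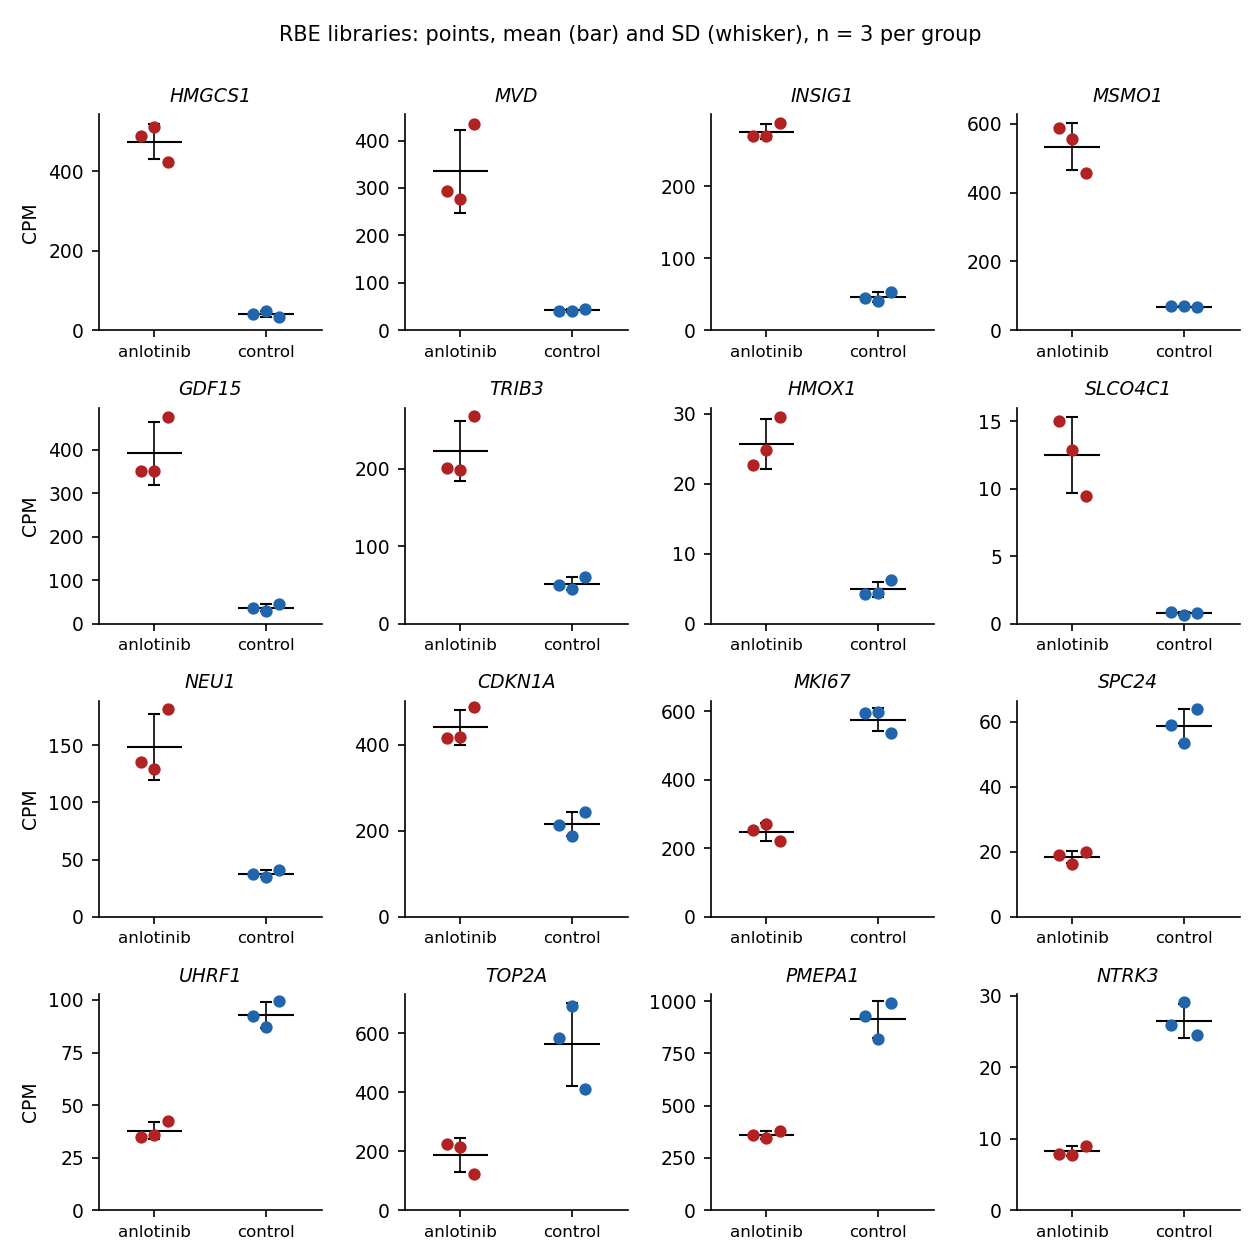
Levels of 16 genes in each RBE library (CPM, each axis starting at 0) with the mean as a bar and the SD as a whisker, 3 anlotinib libraries left and 3 control libraries right. HMGCS1, GDF15 and SLCO4C1 sit far above the controls in every anlotinib library, and MKI67, SPC24, PMEPA1 and NTRK3 far below.

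The cell makes cholesterol from acetyl-CoA in the endoplasmic reticulum. When the membrane there holds little sterol, the SREBP transcription factors are released and raise the genes of the pathway, and INSIG1 and INSIG2 hold SREBP back when sterol is plentiful. Of the 21 enzymes of the pathway tested, 19 rose and none fell, with a median log2 fold change of 2.10, against a median of 0.02 over all genes tested. HMGCS1, which makes HMG-CoA and shares 15% of its exon bases with another gene (ENSG00000112972, chromosome 5, 43289395 to 43313512 on GRCh38), had 489, 511 and 425 CPM in anlotinib libraries, against 40.9, 47.2 and 33.6 CPM in control libraries (log2 fold change 3.55 ± 0.20, adjusted p = 8.35e-08). MVD, the decarboxylase of mevalonate diphosphate, had 293, 277 and 436 CPM with anlotinib and 40.9, 39.5 and 44.6 CPM without (log2 fold change 3.00 ± 0.21, adjusted p = 7.93e-07). MSMO1, which removes methyl groups from sterol intermediates, had 587, 557 and 458 CPM with anlotinib and 69.5, 69.8 and 66.3 CPM without (log2 fold change 2.96 ± 0.16, adjusted p = 3.33e-08). Library 6 was the highest of the anlotinib libraries for MVD and not for HMGCS1, and in all 3 genes the groups were far apart. ACAT2, the thiolase at the start of the pathway, averaged 352 ± 58.5 CPM with anlotinib and 54.2 ± 3.9 CPM in controls, and 52% of its exon bases are shared with another gene. The exceptions were PMVK (-0.09 ± 0.14) and LBR (-0.40 ± 0.15), a sterol reductase that also anchors chromatin to the nuclear lamina, and neither passed the test. The letters TCACNCCAC, a common form of the sterol element that SREBP reads, were searched on both strands of the 250 bases before each gene's start. They stood in 0.875% of all promoters and in 0 of 16 promoters of these enzymes, which says only that these letters were not in this window. Among the regulators and carriers described next, 1 of 15 promoters held them, that of SREBF2. Their share was 1.44% for genes up in RBE, 0.511% for genes down and 0.81% for all genes tested. A link to the response was not tested.

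Regulators of SREBP and carriers of cholesterol moved less uniformly: of 19 tested, 7 rose and 2 fell (a count of falls that was 1 without any 1 of control library 3, anlotinib library 4 and anlotinib library 5, and between 1 and 4 over the 9 alternatives that leave out no library), with a median log2 fold change of 0.08. INSIG1 had 269.6, 270.0 and 287 CPM in anlotinib libraries, against 44.1, 40.2 and 53.2 CPM in control libraries (log2 fold change 2.59 ± 0.11, adjusted p = 8.22e-09). STARD4, which carries cholesterol between membranes, averaged 75.4 ± 21.1 CPM with anlotinib and 18.6 ± 3.25 CPM in controls. MYLIP, a ubiquitin ligase that answers to sterol excess through LXR, was lower, at 12.7 ± 0.395 CPM with anlotinib and 20.2 ± 0.251 CPM in controls (log2 fold change -0.67 ± 0.13, adjusted p = 0.00281). SREBF2, the SREBP gene best known for driving cholesterol synthesis, had 380.4, 404 and 470.5 CPM with anlotinib and 177, 151 and 186 CPM in controls (log2 fold change 1.29 ± 0.13, adjusted p = 7.63e-06), and it was chosen after its values were seen. The transcripts of SREBF1 (-0.32 ± 0.17), SCAP (-0.16 ± 0.14) and INSIG2 (0.23 ± 0.16) were not called, nor was ABCA1, the cholesterol exporter under LXR (-0.52 ± 0.21).

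Fatty acid synthesis is the other arm under SREBP control. 14 of 21 of its genes rose and none fell, with a median log2 fold change of 0.80. ACSS2, which makes acetyl-CoA from acetate, had 302, 300.1 and 384 CPM in anlotinib libraries, against 44.9, 45.9 and 47.4 CPM in control libraries (log2 fold change 2.83 ± 0.14, adjusted p = 1.32e-08). SCD, a desaturase whose product is oleate, had 2395, 2520.0 and 2568 CPM with anlotinib and 644, 553 and 677 CPM without (log2 fold change 2.00 ± 0.11, adjusted p = 3.33e-08). These groups did not overlap. FASN, the fatty acid synthase, averaged 1470.0 ± 216 CPM with anlotinib and 486 ± 70.2 CPM in controls, and ACSL1, which activates long-chain fatty acids, averaged 59.9 ± 4.996 and 19.6 ± 0.772 CPM. Of 14 genes of lipid droplets and triglyceride, 2 rose, PLIN2, a coat protein of droplets (0.94 ± 0.15), and MGLL (0.51 ± 0.13), and of 20 genes of fatty acid oxidation 3 rose and 2 fell. Rises made up 14.3% of the droplet list, and rises and falls 15% and 10% of the oxidation list, against 9.4% and 8.39% of all genes. The count of droplet genes that rose was 1 without control library 2, that of oxidation genes that rose was 1 without any 1 of control library 1 and anlotinib library 5, and that of oxidation genes that fell was 0 without anlotinib library 5, 1 without any 1 of control library 1, control library 3 and anlotinib library 4 and 4 without anlotinib library 6.

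**Figure D3:**
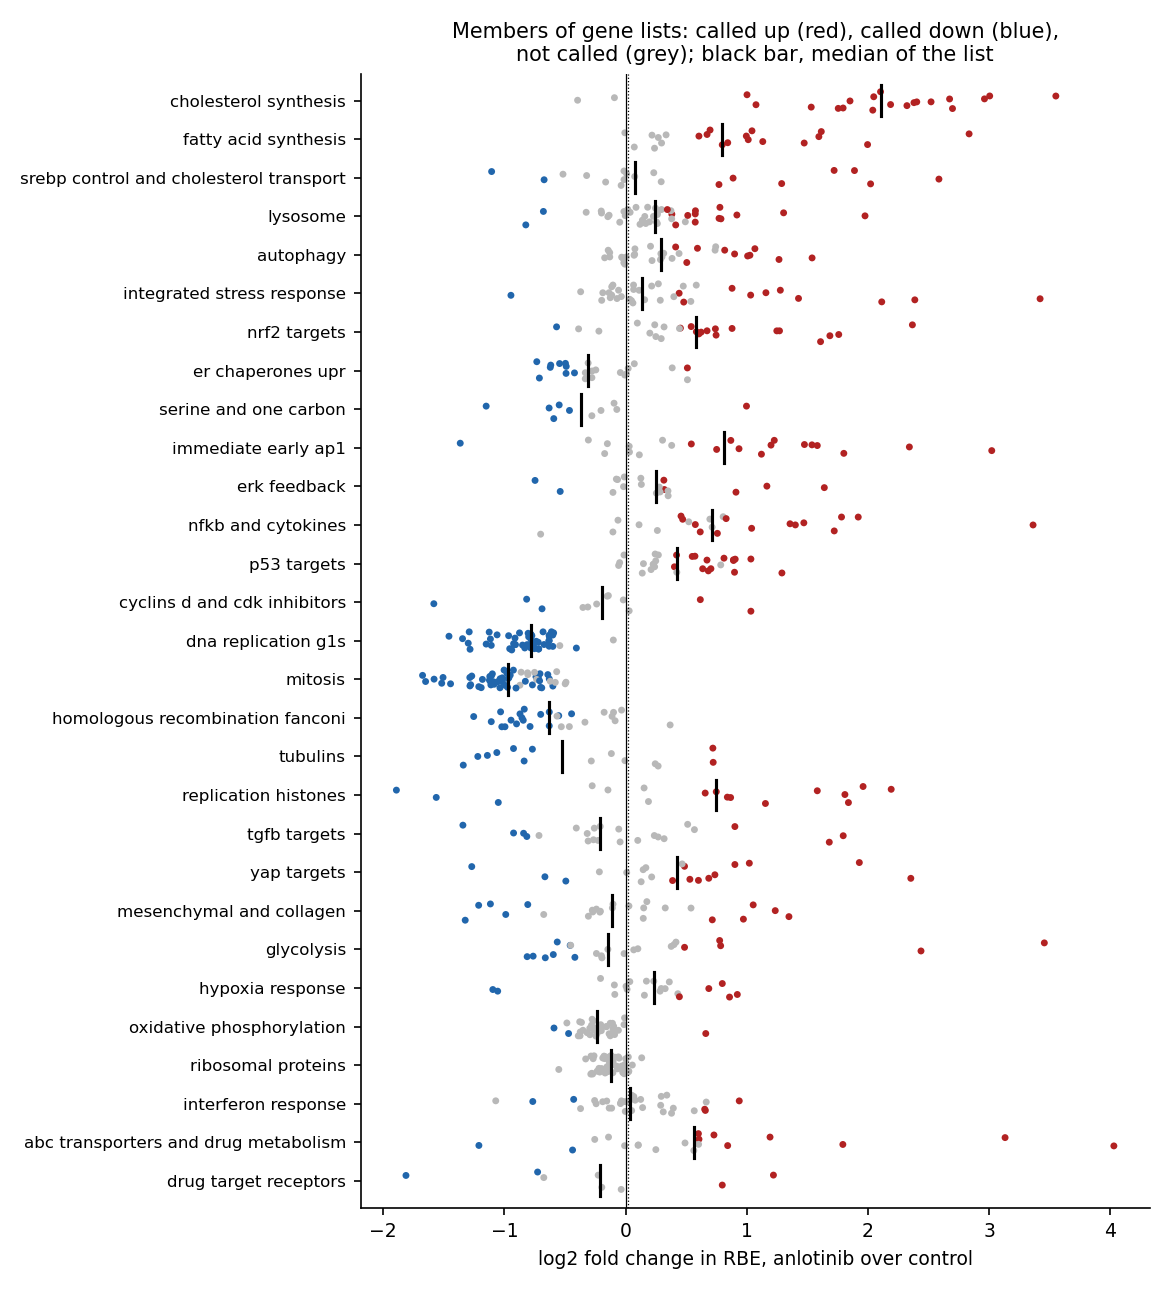
Each point is a tested member of a gene list, placed by its log2 fold change in RBE (red called up, blue called down, grey not called), with the list's median as a black bar and the median of all genes tested as a dotted line. Cholesterol synthesis lies far right (median 2.10), mitosis and DNA replication lie left (medians -0.97 and -0.78), and ribosomal proteins and oxidative phosphorylation have medians of -0.12 and -0.23, with 43 of 50 and 36 of 37 members below 0.

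Lysosomes are acidic organelles that break down lipids, sugars and proteins, and the factors TFEB and TFE3 raise their genes through a short palindrome, CACGTG, in promoters. The letters were searched in the 250 bases before each gene's start in RefSeq promoters (GRCh38.p14), where 11853 of the tested genes matched a promoter. CACGTG, which reads the same on both strands, stood in 6.49% of all 27305 promoters and in 9 of 27 promoters of lysosomal genes (33.3%). Among the 7 lysosomal promoters whose genes were called, 3 held it (42.9%). It stood in 9.37% of promoters of all genes up in RBE and in 8.67% of those of all genes tested. The share thus describes the list, and a link to the response was not tested. The promoters of NEU1 (chr6:31862822-31863071, minus strand, GRCh38.p14, RefSeq) and MCOLN1 (chr19:7522374-7522623, plus strand, GRCh38.p14, RefSeq) are shown 5′ to 3′ because both genes rose and both hold the palindrome, here in capitals. A match is a description of the letters and not a site shown to be bound.
NEU1: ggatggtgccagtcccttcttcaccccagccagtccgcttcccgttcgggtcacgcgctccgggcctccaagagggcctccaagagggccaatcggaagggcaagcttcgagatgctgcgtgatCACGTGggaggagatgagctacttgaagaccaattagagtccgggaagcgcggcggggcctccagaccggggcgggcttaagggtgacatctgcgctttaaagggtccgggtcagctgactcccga
MCOLN1: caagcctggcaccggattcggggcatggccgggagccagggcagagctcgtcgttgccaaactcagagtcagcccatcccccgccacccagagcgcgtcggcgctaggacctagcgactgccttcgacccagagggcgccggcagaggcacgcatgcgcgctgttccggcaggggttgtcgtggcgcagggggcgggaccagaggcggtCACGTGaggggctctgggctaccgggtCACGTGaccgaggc

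Of 43 lysosomal genes, 13 rose and 2 fell, with a median log2 fold change of 0.25. NEU1, the lysosomal sialidase (ENSG00000204386, chromosome 6, 31857659 to 31862906 on GRCh38), had 135, 129 and 181 CPM in anlotinib libraries, against 37.2, 34.9 and 40.9 CPM in control libraries (log2 fold change 1.98 ± 0.14, adjusted p = 2.26e-07). Every anlotinib library was well above every control. LIPA, the acid lipase that frees cholesterol from esters, averaged 186 ± 7.96 CPM with anlotinib and 75.3 ± 4.66 CPM in controls (log2 fold change 1.30 ± 0.09, adjusted p = 3.21e-07). ASAH1, the acid ceramidase, averaged 77.5 ± 2.31 and 41.02 ± 5.71 CPM, and MCOLN1, the calcium channel of the lysosomal membrane, 15.7 ± 2.36 and 9.01 ± 0.6 CPM in the same groups. The protease gene CTSB went the other way, with 138, 146 and 188 CPM in anlotinib libraries, against 269.8, 275 and 290.5 CPM in control libraries (log2 fold change -0.82 ± 0.13, adjusted p = 5.25e-04), and ARSB, a sulfatase, fell by 0.68 on the log2 scale. The transcripts of TFEB (-0.20 ± 0.13), TFE3 (-0.0031 ± 0.11) and MITF (0.26 ± 0.13) were not called. Of 32 autophagy genes 10 rose and none fell. SQSTM1, the cargo receptor p62, had 884, 908 and 972 CPM with anlotinib and 394, 319 and 437 CPM in controls (log2 fold change 1.27 ± 0.13, adjusted p = 1.48e-05), and 22% of its exon bases are shared with another gene. RRAGD, a GTPase that places mTORC1 on lysosomes, averaged 26.2 ± 1.15 CPM with anlotinib and 9.01 ± 0.42 CPM in controls, and its relative RRAGC averaged 20.2 ± 0.774 and 9.91 ± 0.669 CPM, with 23% of its exon bases shared. OPTN, another cargo receptor, rose by 1.07 ± 0.12 on the log2 scale.

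The integrated stress response slows translation and raises ATF4 targets when amino acids run short, proteins misfold or heme is lacking. Of its 36 genes, 10 rose and 1 fell, with a median log2 fold change of 0.13, and the count of rises was 6 without control library 2. GDF15, a secreted stress cytokine (ENSG00000130513, chromosome 19, 18374731 to 18389176 on GRCh38), had 351, 350.5 and 476 CPM in anlotinib libraries, against 36.2, 29.3 and 43.98 CPM in control libraries (log2 fold change 3.42 ± 0.20, adjusted p = 7.15e-08). TRIB3, a pseudokinase that restrains AKT, had 202, 199 and 268 CPM with anlotinib and 49.6, 44.1 and 60.4 CPM in controls (log2 fold change 2.11 ± 0.14, adjusted p = 1.19e-07). ATF3, a stress transcription factor, had 28.9, 29.9 and 37.2 CPM with anlotinib and 5.87, 4.86 and 7.43 CPM in controls (log2 fold change 2.39 ± 0.20, adjusted p = 1.73e-06). All 3 genes stood higher in every anlotinib library. DDIT3, the factor CHOP, averaged 20.4 ± 0.57 CPM with anlotinib and 7.58 ± 0.811 CPM in controls, with 40% of its exon bases shared with another gene. ATF5, which shares 24%, fell by 0.95 on the log2 scale. Among genes of amino acid supply, ASNS (0.54 ± 0.22), CHAC1 (0.58 ± 0.26), SLC7A5 (0.07 ± 0.16) and every transfer RNA synthetase on the list were not called, while SLC7A11, the cystine importer, rose (0.88 ± 0.27, chosen after its values were seen), a call that was lost with library totals as scaling, with limma on log2(RPKM + 1), with limma on log2(RPKM + 0.1), without control library 1, without control library 2, without control library 3, without anlotinib library 4 and without anlotinib library 5. The letters TGATGNAA, read by ATF4 with its partners, stood in 3.19% of all promoters on either strand and in 5 of 33 promoters of this list (15.2%). Among the 9 promoters of this list whose genes were called, 1 held them (11.1%). The same letters stood in 1.98% of promoters of all genes up in RBE and in 0.937% of those of genes down. Among all genes tested the share was 1.41%. A link to the response was not tested. In serine and one-carbon metabolism, which ATF4 also serves, 5 of 10 genes fell, among them PSAT1, an aminotransferase of serine synthesis (-0.59 ± 0.10). That count of falls was 3 without any 1 of control library 3, anlotinib library 4 and anlotinib library 5.

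NRF2 is released from KEAP1 under oxidative or electrophilic stress and raises genes of glutathione, heme breakdown and detoxification. Of 25 such genes, 15 rose and 1 fell, with a median log2 fold change of 0.58, and the count of falls was 0 without any 1 of control library 1, control library 2, anlotinib library 4 and anlotinib library 5, 2 with limma on log2(RPKM + 0.1) and with the GC and length correction and 3 without anlotinib library 6. HMOX1, the heme oxygenase, had 22.6, 24.8 and 29.6 CPM in anlotinib libraries, against 4.25, 4.33 and 6.17 CPM in control libraries (log2 fold change 2.37 ± 0.18, adjusted p = 4.87e-07). OSGIN1, a growth inhibitor that shares 14% of its exon bases, had 20.9, 19.2 and 26.5 CPM with anlotinib and 7.2, 6.55 and 7.91 CPM in controls (log2 fold change 1.61 ± 0.14, adjusted p = 1.86e-06). The groups were clear of each other in both genes. The aldo-keto reductases AKR1C1 (1.69 ± 0.23) and AKR1C2 (1.76 ± 0.19) rose as well, though their near-identical sequences leave the split of reads between them uncertain. NQO1, often used as the lead marker of NRF2 activity, was not called (0.10 ± 0.12), and neither was GCLM (0.29 ± 0.14). The letters TGACNNNGC of the antioxidant element stood in 11% of all promoters on either strand and in 4 of 18 promoters of this list (22.2%). Among the 12 whose genes were called, 3 held them (25%). The zinc exporter gene SLC30A1 rose to 59.2 ± 9.44 CPM with anlotinib, against 31.9 ± 3.25 CPM in controls, and it was 1 of the 2 genes that rose among 8 metallothionein and zinc genes.

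The chaperones of the endoplasmic reticulum leaned downward. Of 23 genes, 9 fell and 1 rose, with a median log2 fold change of -0.31, and 14 fell with the GC and length correction. PDIA4, a disulfide isomerase, had 154, 150.1 and 164 CPM in anlotinib libraries, against 259, 244 and 273 CPM in control libraries (log2 fold change -0.73 ± 0.10, adjusted p = 1.79e-04). CALR, the calcium-binding chaperone calreticulin, averaged 587 ± 78.98 CPM with anlotinib and 903 ± 62.2 CPM in controls (log2 fold change -0.62 ± 0.12, adjusted p = 0.00279). The gene that rose was ERN1 (in other settings more rose, with counts of 2 without any 1 of control library 2 and control library 3 and without a count filter and 3 with the GC and length correction), the stress sensor IRE1 (0.51 ± 0.12). Of 16 cytosolic heat shock genes 1 rose and 1 fell (6.25% each, against 9.4% and 8.39% of all genes). The rise was that of CRYAB, a small chaperone (8.003 ± 2.24 CPM with anlotinib and 1.62 ± 0.149 CPM in controls, 21% of exon bases shared). The count of falls was 0 without any 1 of control library 1, anlotinib library 4 and anlotinib library 5 and 3 without anlotinib library 6. It ran between 0 and 2 over the 9 alternatives that leave out no library. HSPA1A, the inducible HSP70, was not called (-0.04 ± 0.16).

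Before dividing, a cell copies its DNA under E2F factors, whose letters TTTCCCGC or TTTGGCGC mark many replication promoters, and raises its mitotic genes later. In resting cells the DREAM complex holds those genes back through the letters TTTGAA in their promoters. Both motifs were searched on both strands in the same windows, and none of these motifs contains another. The E2F letters stood in 1.96% of all promoters and in 15 of 41 promoters of replication genes (36.6%). Among the 39 whose genes were called, 15 held them (38.5%). TTTGAA stood in 13.6% of all promoters and in 24 of 50 promoters of mitotic genes (48%). Among the 38 whose genes were called, 17 held it (44.7%). Both shares describe the lists, and a link to the response was not tested. UHRF1 (chr19:4909251-4909500, plus strand, GRCh38.p14, RefSeq) and TOP2A (chr17:40417897-40418146, minus strand, GRCh38.p14, RefSeq) are shown 5′ to 3′ as a replication and a mitotic gene that fell and hold their motif, in capitals. In UHRF1 and in the second match of TOP2A the motif lies on the opposite strand and is read here as its reverse complement.
UHRF1: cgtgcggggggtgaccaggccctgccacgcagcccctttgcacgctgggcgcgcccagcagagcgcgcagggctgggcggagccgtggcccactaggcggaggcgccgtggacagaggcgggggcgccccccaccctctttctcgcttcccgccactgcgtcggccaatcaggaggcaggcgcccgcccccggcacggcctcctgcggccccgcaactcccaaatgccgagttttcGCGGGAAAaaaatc
TOP2A: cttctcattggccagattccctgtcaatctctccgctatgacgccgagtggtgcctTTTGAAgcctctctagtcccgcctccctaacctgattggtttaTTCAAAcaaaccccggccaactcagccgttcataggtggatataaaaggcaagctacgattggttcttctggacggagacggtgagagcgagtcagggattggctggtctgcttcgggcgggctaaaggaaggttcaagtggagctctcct

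Of the 52 lists, DNA replication and mitosis held the most falls. In bulk RNA, fewer cells in a phase and less RNA per cell cannot be told apart. Of 50 genes of replication and the entry into S phase, 48 fell and none rose, with a median log2 fold change of -0.78. UHRF1, which keeps DNA methylation through replication, had 35.01, 35.95 and 42.5 CPM in anlotinib libraries, against 92.2, 87.04 and 99.5 CPM in control libraries (log2 fold change -1.30 ± 0.19, adjusted p = 3.71e-04). E2F8, a repressive E2F factor, averaged 4.9 ± 0.574 CPM with anlotinib and 13.5 ± 0.488 CPM in controls, E2F2 averaged 5.36 ± 0.32 and 13.6 ± 1.54 CPM, and ORC1, a subunit of the origin complex, 9.57 ± 1.11 and 23.3 ± 2.42 CPM. PIF1, a helicase, had 7.35, 7.37 and 6.49 CPM with anlotinib and 24.8, 26.5 and 26.2 CPM without (log2 fold change -1.86 ± 0.19, adjusted p = 1.32e-05). The values that were not called were those of CCNE1, cyclin E (-0.54 ± 0.24), and POLD2 (-0.10 ± 0.19).

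Of 59 genes of mitosis, 47 fell and none rose, with a median log2 fold change of -0.97. SPC24, a kinetochore subunit (ENSG00000161888, chromosome 19, 11131520 to 11155808 on GRCh38), had 19.1, 16.2 and 19.9 CPM in anlotinib libraries, against 59.05, 53.3 and 63.9 CPM in control libraries (log2 fold change -1.68 ± 0.16, adjusted p = 5.00e-06). Its partner SPC25 averaged 6.1 ± 0.793 CPM with anlotinib and 19.1 ± 1.41 CPM in controls (log2 fold change -1.65 ± 0.19, adjusted p = 3.16e-05). CDC25C, the phosphatase that opens mitosis, had 7.35, 7.75 and 7.18 CPM with anlotinib and 19.7, 20.4 and 23.8 CPM in controls (log2 fold change -1.52 ± 0.17, adjusted p = 2.26e-05). MKI67, the proliferation marker, had 254, 272 and 220.5 CPM with anlotinib and 594, 598 and 536 CPM in controls (log2 fold change -1.21 ± 0.15, adjusted p = 6.68e-05). In these genes the highest anlotinib library stayed below the lowest control. TOP2A, the topoisomerase that untangles chromosomes, varied more, with 226, 215 and 122 CPM in anlotinib libraries, against 582, 692 and 412 CPM in control libraries (log2 fold change -1.58 ± 0.33, adjusted p = 0.00611), and its lowest values in both groups were those of anlotinib library 6 and control library 3. The call for TOP2A was lost without a count filter. CDCA3, a trigger of mitotic entry, fell by 1.60 on the log2 scale. The 12 mitotic genes that were not called, among them CENPE (-0.60 ± 0.53), CENPF (-0.81 ± 0.42), ASPM (-0.86 ± 0.48) and SMC4 (-0.81 ± 0.34), all had fold changes below 0.

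Repair by homologous recombination runs mainly in dividing cells. Of 27 genes of this repair and of the Fanconi pathway, 17 fell and none rose. EXO1, a nuclease that resects breaks, averaged 17.6 ± 1.65 CPM with anlotinib and 42.2 ± 2.51 CPM in controls (log2 fold change -1.25 ± 0.16, adjusted p = 9.21e-05), FANCD2 averaged 20.97 ± 1.74 and 45.3 ± 0.656 CPM, and FANCG 12.8 ± 0.351 and 25.5 ± 4.47 CPM. RAD54L, with 25% of its exon bases shared, fell by 1.02, and ATM and ATR, the checkpoint kinases, were not called (-0.11 ± 0.36 and -0.03 ± 0.30). Among the 14 tubulin and microtubule genes 7 fell and 2 rose, a count of rises that was 1 without any 1 of control library 1, control library 2, control library 3 and anlotinib library 6. TUBB4B had 384, 361 and 543 CPM in anlotinib libraries, against 979.6, 959 and 1058 CPM in control libraries (log2 fold change -1.22 ± 0.19, adjusted p = 4.29e-04). TUBA1B (-1.34 ± 0.25), TUBA1C (-1.14 ± 0.23) and TUBB (-1.06 ± 0.19) fell too, although 37%, 25% and 16% of their exon bases are shared with other genes and tubulins resemble each other closely. Histone genes split. Of 17 tested, 10 rose and 3 fell. HIST1H1C had 13.8, 12.6 and 13.99 CPM with anlotinib and 2.77, 1.9 and 3.92 CPM in controls (log2 fold change 2.19 ± 0.32, adjusted p = 6.10e-04), HIST2H2BE rose by 1.96 ± 0.16 on the log2 scale, and H2AFX, a variant that marks DNA breaks, had 31.6, 29.7 and 32.03 CPM with anlotinib, against 93.9, 69.7 and 112 CPM in controls (log2 fold change -1.56 ± 0.18, adjusted p = 4.00e-05). Replication histone transcripts mostly lack a poly(A) tail and many are near-identical, so their counts are uncertain.

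Cyclin-dependent kinases drive these steps, and inhibitors hold them back. CDKN1A, the inhibitor p21 and a target of p53, had 416, 418 and 487 CPM in anlotinib libraries, against 213, 188 and 243 CPM in control libraries (log2 fold change 1.03 ± 0.14, adjusted p = 1.24e-04). CCND1, cyclin D1, averaged 634 ± 20.7 CPM with anlotinib and 414 ± 44.1 CPM in controls (log2 fold change 0.62 ± 0.12, adjusted p = 0.00268). CDKN2C, an inhibitor of CDK4 and CDK6, had 14.01, 13.1 and 14.2 CPM with anlotinib and 41.2, 36.5 and 45.7 CPM in controls (log2 fold change -1.58 ± 0.18, adjusted p = 2.61e-05). The inhibitors of this list moved both ways. In all, 2 of its 12 genes rose and 3 fell (5 with the GC and length correction). CDK2, with 17% of its exon bases shared, was lower by a log2 change of -0.69 ± 0.13, and RBL1, the pocket protein p107, by -0.82 ± 0.17. Of 29 p53 targets, 15 rose and none fell, with a median log2 fold change of 0.42. GADD45A, a DNA damage response gene, had 54.95, 53.1 and 59.4 CPM with anlotinib and 20.7, 22.3 and 25.4 CPM in controls (log2 fold change 1.29 ± 0.16, adjusted p = 8.01e-05), and PLK3, a stress kinase, averaged 29.7 ± 3.49 and 15.9 ± 1.56 CPM. BAX (0.15 ± 0.13), FAS (0.21 ± 0.24), XPC (0.23 ± 0.11) and DDB2 (-0.05 ± 0.10), other common p53 targets, were not called. Of 15 genes of the BCL2 family, which governs apoptosis at mitochondria, 4 rose, with the killers BBC3 (34.1 ± 3.7 CPM with anlotinib and 18.3 ± 2.93 CPM in controls) and BIK (6.51 ± 1.26 and 3.38 ± 0.528 CPM) among them, and MCL1 was not called (-0.01 ± 0.10).

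Immediate early genes answer within minutes to growth factors, stress and inflammation and encode AP-1 and related factors. Of 22 such genes, 13 were higher after 24 h with anlotinib and 1 was lower, with a median log2 fold change of 0.81. NR4A1, an orphan nuclear receptor with 10% of its exon bases shared, had 13.3, 14.4 and 17.6 CPM in anlotinib libraries, against 2.14, 1.48 and 1.86 CPM in control libraries (log2 fold change 3.02 ± 0.21, adjusted p = 2.26e-07). EGR1, a zinc finger factor, had 19.3, 23.3 and 26.4 CPM with anlotinib and 9.1, 9.94 and 10.4 CPM in controls (log2 fold change 1.23 ± 0.16, adjusted p = 8.75e-05). MAFF, a small MAF factor, averaged 28.4 ± 5.89 CPM with anlotinib and 10.1 ± 1.97 CPM in controls. The exception KLF2 averaged 2.89 ± 0.401 and 7.3 ± 1.88 CPM (log2 fold change -1.36 ± 0.21, adjusted p = 3.55e-04).

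The DUSP, SPRY and ETV genes are raised by ERK and mostly feed back on it, so they serve as readouts of the pathway below the growth factor receptors. They did not move as one. Of 19 genes, 5 rose and 2 fell, and the count of rises was 3 without any 1 of control library 1, control library 2, anlotinib library 4 and anlotinib library 5, with DESeq's scaling, in a fit of the RBE libraries alone and without a count filter. DUSP5, a nuclear ERK phosphatase, had 113, 116 and 172 CPM in anlotinib libraries, against 42.8, 37.8 and 47.7 CPM in control libraries (log2 fold change 1.64 ± 0.16, adjusted p = 6.79e-06). DUSP1 rose (1.17 ± 0.19), and MYC averaged 337 ± 28.6 CPM with anlotinib and 179 ± 30.1 CPM in controls (log2 fold change 0.91 ± 0.18, adjusted p = 0.0027). SPRY4, an inhibitor of receptor kinase signalling, had 51.3, 55.99 and 58.6 CPM with anlotinib and 93.7, 90.4 and 94.4 CPM in controls (log2 fold change -0.75 ± 0.11, adjusted p = 2.03e-04), and ETV5, an ETS factor, averaged 67.1 ± 6.75 and 97.5 ± 9.31 CPM (log2 fold change -0.54 ± 0.10, adjusted p = 0.00219). DUSP6, the classical readout of ERK, was not called (0.13 ± 0.15).

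Of 23 NF-kB and cytokine genes, 14 rose and none fell, with a median log2 fold change of 0.71. CXCL8, the neutrophil chemokine interleukin 8, had 10, 9.57 and 8.88 CPM in anlotinib libraries, against 2.42, 3.01 and 2.19 CPM in control libraries (log2 fold change 1.92 ± 0.23, adjusted p = 5.73e-05). CSF1, the macrophage growth factor, had 94.2, 97.2 and 119 CPM with anlotinib and 38.4, 32.9 and 40.4 CPM in controls (log2 fold change 1.47 ± 0.13, adjusted p = 3.42e-06). LIF, a cytokine of the interleukin 6 family, averaged 107 ± 7.63 CPM with anlotinib and 51.97 ± 3.82 CPM in controls, and RELB, a subunit of NF-kB, averaged 14.8 ± 2.44 and 8.24 ± 1.4 CPM. Of 34 interferon response genes 3 rose and 2 fell, shares at or below those of all genes, with IFIT2 at 0.94 ± 0.23 and OAS3 at -0.77 ± 0.14. The count of rises was 1 without control library 1. Of 15 HLA class I and checkpoint genes 2 rose (13.3%, against 9.4% of all genes) and none fell, and the count of rises was 1 without any 1 of the 6 RBE libraries and with DESeq's scaling and 4 with the GC and length correction. VTCN1, the checkpoint ligand B7-H4, rose to 15.4 ± 1.82 CPM, against 7.58 ± 0.893 CPM in controls, and CD274, which encodes PD-L1, was not called (0.59 ± 0.21).

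Of the 12 receptors that anlotinib inhibits, 4 were too scarce in RBE to test. KDR, FLT1, FLT4 and KIT were not tested, with 4, 8, 22 and 17 counts summed over the anlotinib libraries and 5, 3, 22 and 61 over the control libraries. The control sum of KIT came mostly from control library 2. KIT had 7, 6 and 4 counts in anlotinib libraries and 1, 54 and 6 in control libraries, so no fall can be read from its sums. FGFR2 had 3.77, 4.58 and 4.58 CPM in anlotinib libraries, against 1.62, 2.38 and 1.65 CPM in control libraries (log2 fold change 1.22 ± 0.20, adjusted p = 6.36e-04). PDGFRB had 3.8, 3.25 and 5.37 CPM with anlotinib and 2.07, 2.54 and 2.42 CPM in controls (log2 fold change 0.80 ± 0.21, adjusted p = 0.0156), a call that was lost without control library 1. RET had 0.693, 0.664 and 0.745 CPM with anlotinib and 1.72, 3.96 and 1.89 CPM in controls (log2 fold change -1.81 ± 0.35, adjusted p = 0.0019). RET rested on few reads, with 23, 31 and 14 counts in anlotinib libraries and 49, 75 and 63 counts in control libraries. PDGFRA, with 16% of its exon bases shared, had 23.2, 25.03 and 19.2 CPM with anlotinib and 35.7, 44.2 and 32.2 CPM in controls (log2 fold change -0.73 ± 0.20, adjusted p = 0.0209), a call that was lost with library totals as scaling, without control library 1, without control library 2 and without anlotinib library 4. FGFR1 (243 ± 30.97 CPM with anlotinib and 284 ± 23.6 CPM in controls, -0.23 ± 0.15), FGFR3 (63.4 ± 3.9 and 64.99 ± 6.01 CPM, -0.04 ± 0.14), FGFR4 (156 ± 20 and 179 ± 13.8 CPM, -0.20 ± 0.12) and CSF1R (0.441 ± 0.214 and 0.69 ± 0.0566 CPM, -0.68 ± 0.39) were not called.

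Other receptor kinases can carry growth signals when these are blocked. Of 16 tested, none rose and 3 fell. NTRK3, a neurotrophin receptor, had 7.92, 7.79 and 9.04 CPM in anlotinib libraries, against 25.9, 29.2 and 24.5 CPM in control libraries (log2 fold change -1.69 ± 0.16, adjusted p = 4.69e-06). EPHB2 averaged 28.8 ± 6.32 CPM with anlotinib and 57.1 ± 6.53 CPM in controls (log2 fold change -0.99 ± 0.15, adjusted p = 4.05e-04), and AXL averaged 246 ± 20.1 and 391 ± 67.1 CPM (log2 fold change -0.67 ± 0.16, adjusted p = 0.00867). EGFR (0.02 ± 0.11), ERBB2 (-0.15 ± 0.13) and MET (-0.16 ± 0.12) were not called. Among growth factors and their coreceptors, NRP2, a coreceptor of VEGF and semaphorins, had 149, 157 and 162 CPM with anlotinib and 393, 369 and 405 CPM in controls (log2 fold change -1.32 ± 0.11, adjusted p = 1.63e-06), and PDGFD, a ligand of PDGFRB, had 10.8, 10.3 and 7.98 CPM with anlotinib and 3.51, 4.02 and 3.14 CPM in controls (log2 fold change 1.46 ± 0.26, adjusted p = 0.00126). VEGFA was not called (-0.09 ± 0.14). In this list 5 of 22 genes rose and 2 fell, and the count of rises was 2 without any 1 of control library 3 and anlotinib library 4 and 3 without any 1 of control library 1, control library 2 and anlotinib library 5 and without a count filter.

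TGF beta drives matrix production and the mesenchymal state through SMAD factors. Of 23 of its ligands, receptors and targets, 3 rose (13%) and 4 fell (17.4%), against 9.4% and 8.39% of all genes. With the GC and length correction 8 fell. PMEPA1, a feedback inhibitor and direct target, had 358, 343 and 378 CPM in anlotinib libraries, against 928, 818 and 992 CPM in control libraries (log2 fold change -1.34 ± 0.14, adjusted p = 1.23e-05). TGFBI, a secreted target, averaged 392 ± 52.1 CPM with anlotinib and 703 ± 19.5 CPM in controls (log2 fold change -0.84 ± 0.15, adjusted p = 9.86e-04). BMP2 averaged 6.12 ± 0.275 and 1.75 ± 0.26 CPM (log2 fold change 1.80 ± 0.16, adjusted p = 2.76e-06), and TGFB2, which shares 27% of its exon bases, 332 ± 67.4 and 178 ± 12.4 CPM. SMAD7, another target, was not called (-0.32 ± 0.13). YAP and TEAD targets respond to cell shape and contact. Here 10 of 20 rose and 3 fell. ANKRD1 had 166, 167 and 140.5 CPM with anlotinib and 27.8, 34.8 and 30.1 CPM in controls (log2 fold change 2.35 ± 0.27, adjusted p = 9.86e-05). CTGF, a matrix-associated growth regulator, had 267, 259 and 341 CPM with anlotinib and 73.6, 78.3 and 75.9 CPM in controls (log2 fold change 1.93 ± 0.25, adjusted p = 2.46e-04). IGFBP3, which binds insulin-like growth factors, fell to 51.1 ± 5.33 CPM with anlotinib, against 123 ± 6.998 CPM in controls.

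The mesenchymal and collagen list moved both ways, with 5 of 25 genes up and 5 down. TNC, the matrix glycoprotein tenascin C, averaged 361 ± 32.5 CPM with anlotinib and 718 ± 18.1 CPM in controls (log2 fold change -0.99 ± 0.13, adjusted p = 1.50e-04). COL5A1 averaged 52.3 ± 4.13 and 121 ± 19.9 CPM (log2 fold change -1.21 ± 0.14, adjusted p = 4.09e-05), and COL12A1 48.4 ± 4.05 and 24.7 ± 1.03 CPM (log2 fold change 0.97 ± 0.14, adjusted p = 2.10e-04). Collagen genes thus changed in both directions. VIM (-0.31 ± 0.12), CDH2 (-0.11 ± 0.09) and FN1 (-0.24 ± 0.14), the usual mesenchymal markers, were not called, and neither was CDH1, E-cadherin (-0.22 ± 0.15). The count of rises was 3 without any 1 of control library 3 and anlotinib library 4, with the stricter count filter and with limma on log2(RPKM + 1), and that of falls 9 with the GC and length correction. Of 19 integrins and laminins none rose and 1 fell (5.26%, against 8.39% of all genes). That count of falls was 2 without any 1 of control library 2 and anlotinib library 6. It ran between 1 and 6 over the 9 alternatives that leave out no library. Of 20 junction genes 1 rose (5%), CLDN1 (0.55 ± 0.10), and 2 fell (10%), against 9.4% and 8.39% of all genes. CLDN2, the claudin of leaky epithelia, was at 209.9 ± 14.1 CPM with anlotinib and 398 ± 30.3 CPM in controls. The junction genes that rose numbered 3 without anlotinib library 6, and between 1 and 4 over the 9 alternatives that leave out no library, and those that fell 1 without any 1 of control library 1, anlotinib library 4 and anlotinib library 5 and without a count filter. Among 12 keratins 3 rose (25%) and 1 fell (8.33%). Mucin and secretory genes numbered 10, and 3 rose (30%) and 1 fell (10%). The 16 proteases and their inhibitors had 3 rises (18.75%) and 1 fall (6.25%). Over all genes tested, 9.4% rose and 8.39% fell. The count of keratins that rose was 1 without any 1 of control library 1 and control library 2 and with the stricter count filter, that of mucin and secretory genes that rose was 1 without any 1 of control library 1 and control library 3 and in a fit of the RBE libraries alone, and that of proteases and inhibitors that fell was 0 without any 1 of control library 2, anlotinib library 4 and anlotinib library 5 and 3 without anlotinib library 6, and between 1 and 3 over the 9 alternatives that leave out no library. The bile duct gene SPP1, osteopontin, rose to 323 ± 39.9 CPM with anlotinib, against 158 ± 36.1 CPM in controls (log2 fold change 1.04 ± 0.18, adjusted p = 0.00101).

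Glycolysis did not move as a pathway. Of 23 genes, 5 rose and 7 fell, with a median log2 fold change of -0.15, and the count of rises was 3 without any 1 of control library 1, control library 2, control library 3 and anlotinib library 5 and with limma on log2(RPKM + 1). LDHA, the lactate dehydrogenase, had 618, 607 and 787 CPM in anlotinib libraries, against 1109, 1186 and 1239 CPM in control libraries (log2 fold change -0.81 ± 0.12, adjusted p = 3.08e-04). TPI1 averaged 516 ± 108 CPM with anlotinib and 817 ± 35.5 CPM in controls (log2 fold change -0.66 ± 0.13, adjusted p = 0.00301), and PGAM1 averaged 322 ± 54.6 and 486 ± 60.4 CPM (log2 fold change -0.60 ± 0.13, adjusted p = 0.00465). PFKFB3, which sets the pace of phosphofructokinase, averaged 243 ± 14.6 and 413 ± 24.9 CPM. HK2, a hexokinase, rose (0.78 ± 0.11), as did ALDOC, and GAPDH (-0.20 ± 0.15) and SLC2A1, the glucose transporter GLUT1 (-0.20 ± 0.15), were not called. Of 21 hypoxia genes 5 rose and 2 fell, with NDRG1 at 72.1 ± 9.47 CPM with anlotinib and 38 ± 4.42 CPM in controls, and ANGPTL4 at 6.26 ± 1.17 and 12.9 ± 2.3 CPM. That count of rises was 3 without control library 1, and the count of falls was 1 without any 1 of control library 1, control library 2, control library 3, anlotinib library 5 and anlotinib library 6, and between 1 and 2 over the 9 alternatives that leave out no library.

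Few genes of energy supply and protein synthesis were called. Of 37 nuclear genes of oxidative phosphorylation 1 rose and 2 fell, and none of the 13 mitochondrial transcripts or the 50 ribosomal protein genes was called by edgeR, while 0 and 3 of them had an unadjusted p below 0.05 and DESeq2 called 0 and 0. These counts rested on anlotinib library 6: without it, 20 genes of oxidative phosphorylation and 15 ribosomal protein genes fell. With the GC and length correction the numbers were 11 and 5. Of 29 genes of ribosome biogenesis none rose and 4 fell, a count that was 1 without any 1 of control library 1, control library 3, anlotinib library 4 and anlotinib library 5 and 2 without control library 2, with DESeq's scaling and in a fit of the RBE libraries alone. UBTF, which opens ribosomal DNA for transcription, fell to 97.4 ± 1.94 CPM with anlotinib, against 165 ± 13.97 CPM in controls (log2 fold change -0.76 ± 0.11, adjusted p = 3.15e-04).

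FOXO factors are held back by AKT and rise when growth factor or insulin signalling falls. Of 18 of their targets, 8 rose and 1 fell, and the count of rises was 5 without anlotinib library 5. PIK3IP1, an inhibitor of PI3 kinase, had 23.2, 24.4 and 25.1 CPM in anlotinib libraries, against 7.94, 7.88 and 10.1 CPM in control libraries (log2 fold change 1.48 ± 0.18, adjusted p = 7.23e-05). CITED2 averaged 76.8 ± 16.9 CPM with anlotinib and 32.4 ± 2.73 CPM in controls, and FBXO32, a ubiquitin ligase of muscle wasting, 29.8 ± 2.69 and 11.4 ± 0.929 CPM. TXNIP (0.02 ± 0.12) and IRS1 (-0.02 ± 0.11), well-known targets, were not called. In the WNT list 2 of 11 genes fell (4 with the GC and length correction), and AXIN2, its common readout, was not called (0.04 ± 0.24). In the Notch list 1 of 15 genes rose (6.67%) and 2 fell (13.3%), against 9.4% and 8.39% of all genes. The count of rises was 0 without any 1 of control library 1, control library 3, anlotinib library 4, anlotinib library 5 and anlotinib library 6, and between 0 and 2 over the 9 alternatives that leave out no library, and that of falls was 1 without any 1 of control library 3 and anlotinib library 5 and 4 with the GC and length correction. LFNG, a sugar transferase that tunes the receptors, had 35.01, 33.7 and 42.1 CPM with anlotinib and 77.6, 75.8 and 83.3 CPM in controls (log2 fold change -1.10 ± 0.14, adjusted p = 8.51e-05), and HES1 was not called (-0.32 ± 0.13).

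Of 19 transporters and drug-metabolising genes, 8 rose and 2 fell, a count of falls that was 1 without any 1 of control library 1, control library 2, control library 3, anlotinib library 4 and anlotinib library 5, and between 1 and 3 over the 9 alternatives that leave out no library. ABCB1, the drug efflux pump P-glycoprotein, had 47.7, 49.6 and 41.7 CPM in anlotinib libraries, against 24.8, 29.8 and 23.2 CPM in control libraries (log2 fold change 0.84 ± 0.16, adjusted p = 0.00183). ABCC2, an exporter of conjugated bile salts and drugs, averaged 72.4 ± 7.8 CPM with anlotinib and 47.6 ± 1.66 CPM in controls (log2 fold change 0.61 ± 0.12, adjusted p = 0.00274). CYP24A1, which breaks down vitamin D, averaged 70.5 ± 3.08 and 163 ± 9.02 CPM (log2 fold change -1.21 ± 0.16, adjusted p = 9.43e-05). By gene class, 1364 of 13722 protein-coding genes rose (9.94%) and 1390 fell (10.1%). Among 2612 long non-coding RNA genes, 239 rose (9.15%) and 75 fell (2.87%). Over all genes tested, 9.4% rose and 8.39% fell, so the shares of rises were alike and those of falls were not. The median log2 fold changes of the protein-coding and the long non-coding class were -0.00091 and 0.16. Over all 15 alternatives the long non-coding rises ran between 104 and 334 and the falls between 37 and 106, with 141 rises without anlotinib library 4 and 37 falls without anlotinib library 5.

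The response of RBE was then set against that of HCCC9810 to see where it differed, by testing the difference of the log2 fold changes (RBE minus HCCC9810) in the same fit. In HCCC9810, 4014 of the same genes were called (22.3%). The genes had been filtered on RBE alone, so genes scarce in HCCC9810 were tested as well. The effects differed for 2929 genes (16.3%), of which 8.54% had the higher fold change in RBE and 7.72% the lower. That count was 1601 without anlotinib library 4, 1522 without anlotinib library 5, 4875 without anlotinib library 6, 1836 without control library 1, 1700 without control library 3 and 4686 with the GC and length correction. In RBE the fold changes followed GC content little (rho -0.079 across genes), and in HCCC9810 more (0.428), and the part of GC content in single differences was not tested beyond that correction. Rises shared by both lines numbered 463 (27.4% of the RBE rises and 23.9% of the HCCC9810 rises), and shared falls 307 (20.3% and 14.8%). Of all genes tested, 9.4% rose in RBE and 10.8% in HCCC9810, while 8.39% fell in RBE and 11.5% in HCCC9810.

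The genes of mitosis set the lines apart. For 38 of 59 the fold change was lower in RBE than in HCCC9810 by the test of the difference, and for none was it higher. In RBE 47 fell and none rose, and in HCCC9810 24 rose and 6 fell. Over the alternatives that gave a value for the difference, the number of mitotic genes with a lower effect in RBE ran between 34 and 52, with 52 under the GC and length correction. AURKA, a spindle pole kinase, had 71.2, 75.01 and 88.7 CPM in RBE anlotinib libraries, against 124, 120.4 and 138 CPM in RBE controls, and averaged 348 ± 61.5 CPM in HCCC9810 anlotinib libraries, against 91.5 ± 14.9 CPM in HCCC9810 controls. Its log2 fold changes were -0.71 ± 0.15 in RBE and 1.93 ± 0.15 in HCCC9810, and the difference of -2.63 had an adjusted p of 6.27e-06 by edgeR. CCNB2, cyclin B2, showed log2 fold changes of -0.72 ± 0.13 in RBE and 1.60 ± 0.14 in HCCC9810, and KIF20A, a kinesin of cell cleavage, -1.29 ± 0.16 and 1.61 ± 0.16. PTTG1, the securin that guards sister chromatids, showed -0.71 ± 0.14 in RBE and 1.55 ± 0.14 in HCCC9810. The replication genes were less divided: 48 of 50 fell in RBE and 24 in HCCC9810, and 13 differed by the test.

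Targets of NRF2 differed too. For 12 of 25 the effect was higher in RBE, and for 2 it was lower. HMOX1 had a log2 fold change of 2.37 ± 0.18 in RBE and -0.06 ± 0.16 in HCCC9810 (adjusted p for the difference 2.41e-05, edgeR). Drug transporters and metabolism had 10 of 19 genes higher and 1 lower, with ABCB1 at 0.84 ± 0.16 in RBE and -1.27 ± 0.18 in HCCC9810. TGF beta genes had 10 of 23 higher and 1 lower, and 4 fell in RBE and 15 in HCCC9810. Glycolysis had 9 of 23 lower and none higher, with LDHA at -0.81 ± 0.12 in RBE and 0.43 ± 0.12 in HCCC9810, and 12 of these genes rose in HCCC9810. Cholesterol synthesis rose in both lines, and the 7 of its 21 genes whose effects differed split into 3 higher and 4 lower in RBE.

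**Figure D4:**
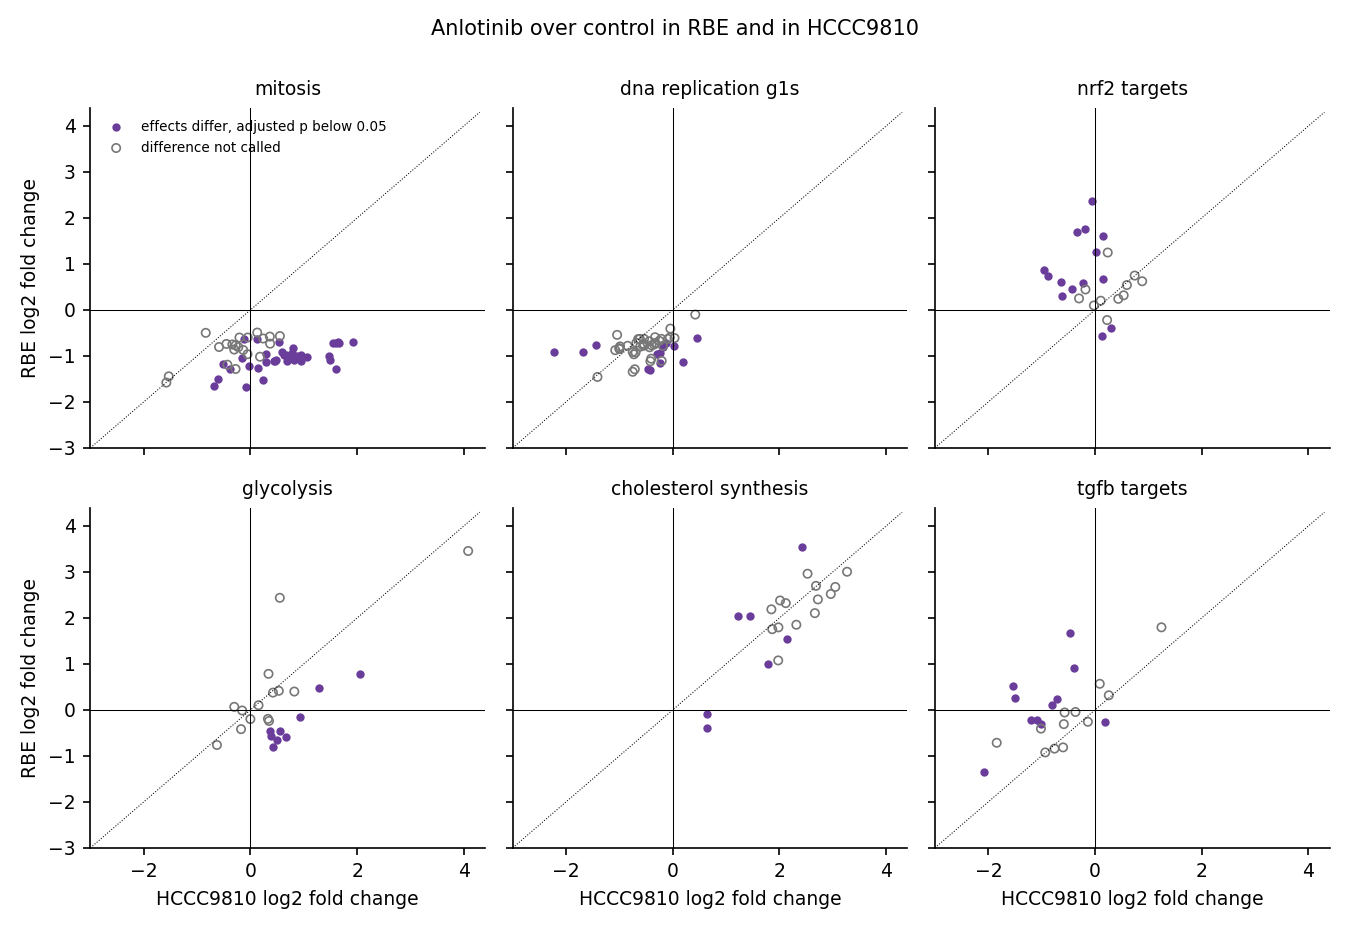
Each point is a gene of the named list, with its log2 fold change of anlotinib over control in HCCC9810 on the horizontal axis and in RBE on the vertical axis. Filled points passed the test of the difference and the dotted line marks equal effects. Mitotic genes lie below 0 in RBE and on both sides of 0 in HCCC9810, while most cholesterol genes lie above 0 in both lines, 7 of 21 of them with a difference that passed the test.

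Among the 8 genes of at least 5 CPM in some group with the smallest p for a higher effect in RBE, 7 had a fold change above 0 in RBE and below 0 in HCCC9810. KRT4, a keratin of stratified epithelium, had 1.6, 1.44 and 1.38 CPM in RBE anlotinib libraries, against 0.211, 0.264 and 0.15 CPM in RBE controls, and averaged 12.1 ± 2.13 CPM in HCCC9810 anlotinib libraries, against 173 ± 52.3 CPM in HCCC9810 controls. MAP1B, a microtubule-associated protein of neurons, had 513, 557 and 426 CPM in RBE anlotinib libraries, against 313, 302 and 292 CPM in RBE controls, and averaged 2.76 ± 0.362 CPM in HCCC9810 anlotinib libraries, against 18.7 ± 2.1 CPM in HCCC9810 controls (log2 fold changes 0.72 ± 0.12 in RBE and -2.75 ± 0.15 in HCCC9810). HEG1, an endothelial and epithelial junction receptor, changed by 0.52 ± 0.11 in RBE and -1.15 ± 0.11 in HCCC9810, and RHOBTB3 by 0.65 ± 0.12 and -1.21 ± 0.12. NPC1L1, the intestinal cholesterol uptake transporter, averaged 8.45 ± 1.08 CPM in RBE anlotinib libraries and 1.34 ± 0.0828 CPM in RBE controls, with log2 fold changes of 2.66 ± 0.19 in RBE and -0.88 ± 0.25 in HCCC9810. Of the 8 genes with the smallest p for a lower effect in RBE, all had fold changes below 0 in RBE and above 0 in HCCC9810. The helicase gene PIF1, for example, changed by -1.86 ± 0.19 in RBE and 1.47 ± 0.21 in HCCC9810.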

How the data were processed

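RNA was sequenced from 12 cultures, of which 6 were of RBE. The authors deposited a table of raw read counts per gene and a table of RPKM per gene, and the submitters' processing notes name HISAT2 and GRCh38. Versions, the counting tool and whether strand was used are not given in the sources used here, so reads of overlapping genes may be assigned to either. The deposited RPKM values equal the deposited counts divided by gene length and library total within 0.039%. All 58216 gene IDs were found in GENCODE release 29, from which positions were taken. All sample columns of both tables were used, in 4 groups given by the words in the headers.

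Counts were fitted with edgeR 4.0.16 in R 4.3.3 (quasi-likelihood, robust, TMM scaling) over all 12 libraries with 4 group means, which leaves 8 residual degrees of freedom, after filterByExpr on the 6 RBE columns. Tests were two-sided, with Benjamini-Hochberg adjustment over 18019 genes. The difference between lines was tested as an interaction in the same fit. Alternatives were other scalings, filters, DESeq2 1.42.0, limma 3.58.1 on log2(RPKM + 1) and log2(RPKM + 0.1), RBE alone, a per-library correction for GC content and length, and each RBE library left out. Counts were also simulated for 18019 genes of the RBE comparison, with 67, 67 and 66 genes altered 1.5-fold, 2-fold and 4-fold. The share of altered genes that was called was 28.4%, 70.1% and 100% at these folds, and 8.97% of the 145 calls made were wrong. Far fewer genes were altered than the 3205 called in the data, and the GC split between libraries was not simulated. These shares therefore do not give the recovery or the false share of the real comparison.

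The genes named were the 12 largest called rises and falls with at least 5 CPM and no overlap between groups, up to 4 called members per direction of each of 52 gene lists, all receptors of the drug with CDKN1A, MKI67, KRT7 and KRT19, and the 8 genes per direction with the smallest p for the difference between lines. Other genes were chosen after their values were seen, and some genes that the rule names are not reported here. The part of the data described and the lists were chosen with earlier results of these data known. Promoter sequences are those of RefSeq (GRCh38.p14).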

Additional observations from a re-analysis of the deposited data

Results flagged for a closer look

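Listed here are 95 of the genes described for RBE. Their anlotinib effect differed between the lines by edgeR's test of the difference itself (adjusted p at or below 0.0499). SLCO4C1 passed that test too (adjusted p = 0.0332, edgeR, higher in RBE) but is not among the 95. It had 1, 0 and 1 counts in HCCC9810 control libraries and 0 in each HCCC9810 anlotinib library, so no HCCC9810 effect can be read from it. Each value is the log2 fold change in RBE minus that in HCCC9810, with 3 libraries per group, so a value above 0 means a higher effect in RBE. In 49 genes the value was above 0 and in 46 below 0. With the GC and length correction, 92 of the 95 kept their sign and their call. Genes were kept by their counts in RBE, so some of the 95 were scarce in HCCC9810 and their values rest on few reads there. CRYAB had 9, 9 and 8 counts in HCCC9810 control libraries and 3, 7 and 5 in HCCC9810 anlotinib libraries. TRIM54 had 6, 6 and 7 counts and 16, 9 and 11 counts in the same groups. What the differences come from was not tested.

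Among genes of mitosis and the spindle the differences were below 0, -2.90 for KIF20A, -2.63 for AURKA, -2.32 for CCNB2, -2.26 for PTTG1, -1.90 for CDCA3, -1.76 for CDC25C, -1.59 for SPC24, -1.18 for MKI67, -1.11 for TUBB4B and -0.96 for SPC25. For DNA copying, repair and chromatin they were above 0, 1.92 for HIST1H1C and 1.20 for HIST2H2BE, and below 0, -3.33 for PIF1, -1.60 for CDKN2C, -1.59 for H2AFX, -1.10 for RAD54L, -1.04 for LBR, -0.87 for UHRF1, -0.78 for FANCD2 and -0.76 for UBTF. In cell cycle brakes and apoptosis the values were above 0, 0.73 for BBC3, 0.60 for CCND1 and 0.59 for CDKN1A. Among genes of sterol and fatty acid metabolism the differences were above 0, 3.54 for NPC1L1, 1.13 for HMGCS1, 1.07 for ACSS2, 0.65 for ACSL1 and 0.62 for LIPA, and below 0, -1.38 for SREBF1, -1.20 for SCD, -0.74 for PMVK and -0.67 for INSIG1. For lysosome and autophagy they were above 0, 0.75 for MITF, 0.70 for OPTN and 0.65 for RRAGD, and below 0, -0.62 for CTSB and -0.55 for ARSB. In oxidative stress and drug handling the values were above 0, 2.43 for HMOX1, 2.11 for ABCB1, 2.03 for AKR1C1, 2.004 for SULT1C2, 1.95 for AKR1C2, 1.84 for SLC7A11, 1.71 for SLC30A1, 1.46 for OSGIN1, 1.24 for ABCC2, 0.91 for GCLM and 0.90 for CYP24A1.

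Among genes of the stress response, chaperones and one-carbon metabolism the differences were above 0, 2.75 for CRYAB, 1.04 for GDF15 and 0.99 for TRIB3, and below 0, -1.01 for ATF5, -0.53 for PSAT1 and -0.47 for PDIA4. For glycolysis and hypoxia they were below 0, -1.67 for NDRG1, -1.33 for ANGPTL4, -1.26 for PGAM1, -1.24 for LDHA, -1.16 for TPI1 and -0.72 for VEGFA. In growth signalling the values were above 0, 1.87 for AXIN2, 1.70 for NR4A1, 1.23 for FGFR2 and 0.88 for FBXO32, and below 0, -1.33 for ETV5, -0.98 for EGR1, -0.91 for LFNG, -0.71 for DUSP6, -0.67 for NRP2, -0.59 for FGFR4 and -0.49 for SPRY4. Among genes of cytokines and interferon the differences were above 0, 1.15 for IFIT2 and 1.10 for CSF1, and below 0, -1.33 for NKILA, -0.77 for LIF and -0.74 for OAS3. For TGF beta, YAP and matrix they were above 0, 2.23 for ANKRD1, 1.91 for COL12A1, 1.29 for TGFB2, 0.74 for PMEPA1 and 0.69 for SMAD7, and below 0, -0.88 for SPOCK1 and -0.59 for VIM. In epithelial and cell type markers the values were above 0, 6.70 for KRT4, 2.85 for HRNR, 2.56 for VWF, 1.42 for KRT19, 0.88 for KRT7 and 0.63 for CLDN1, and below 0, -1.05 for SERPINA1. The other genes were 3.48 for MAP1B, 2.64 for AL590004.4, 2.35 for TRIM54, 1.86 for RHOBTB3 and 1.68 for HEG1.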

How the results depend on the processing

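RBE calls numbered 3205 (1693 up, 1512 down) and differences between lines 2929. Only the GC and length correction and the fits without 1 library moved these by over 1.5 times: with the correction, 5053 genes were called in RBE, 2751 fell and 4686 differed between lines. Without 1 library the calls ran between 1952 and 3869, the rises between 1084 and 1860, the falls between 819 and 2009 and the differences between 1522 and 4875, and the cause was not tested. Among the other 8 alternatives RBE calls ran between 2759 and 3487. Rises were 52.8% of calls, 61.5% with library totals as scaling, which moved the median of all genes to 0.082. Of 150 called genes named here, 142 kept their direction and call in all 15 alternatives and 147 in the 9 that leave out no library. No gene named here changed sign while called. The exceptions were IFIT2 (lost without control library 3), MGLL (lost without control library 2) and KRT19, PDGFRA, PDGFRB, SERPINA1, SLC7A11 and TOP2A, given with their results. Genes given as not called were not so in every alternative. Counting each gene in each alternative, a call was gained in 21 cases, with FGFR1 and FGFR4 called as lower in 1 alternative each. No paired analysis was possible because treated and control libraries of a line share no replicate numbers. The shallowest library, a control with 17779598 counts, limits what can be seen in scarce genes such as RET.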

Other observations

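Opposite calls were found between the lines for 152 genes that rose in RBE and fell in HCCC9810 (8.98% of the RBE rises and 7.33% of the HCCC9810 falls), and for 192 genes that fell in RBE and rose in HCCC9810 (12.7% of the RBE falls and 9.89% of the HCCC9810 rises). These shares are to be read beside those of all genes tested. In HCCC9810, 11.5% of all genes fell and 10.8% rose, and in RBE 9.4% rose and 8.39% fell. Opposite calls were thus near these shares. No control library is shared between the lines.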
